A study of Mus musculus with 10 samples.

Results

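The nuclear genes for the subunits of respiratory complexes II, III, IV and V were followed across 10 RNA sequencing libraries of mouse leukaemic cells. The members were the protein-coding genes, by GENCODE release M21, whose symbols name subunits of succinate dehydrogenase (Sdha to Sdhd), of the cytochrome bc1 complex (Cyc1 and the Uqcr genes), of cytochrome c oxidase (the Cox4 to Cox8 genes) or of ATP synthase (the Atp5 genes). This rule used no measured value. It found 48 of the 52636 genes in the count table, on 18 chromosomes, with 4 genes in complex II, 9 in complex III, 18 in complex IV and 17 in complex V.

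The cells came from a mouse model of acute myeloid leukaemia named DIN, made by transducing fetal liver cells with 3 MSCV retroviral vectors that carry DNMT3A R882H, IDH2 R140Q and NRAS G12D. DNMT3A R882H is a mutant DNA methyltransferase, and its vector is switched off by doxycycline through a transactivator carried on the NRAS vector, while the IDH2 and NRAS vectors were present in the cells of every group. Frozen leukaemic cells were transplanted into Ptprca recipient mice, which then received doxycycline in chow and water (R882H off) or a normal diet (R882H on) for 5 or 14 days. Leukaemic progenitors were sorted by flow cytometry from marrow and spleen as Kit-positive cells lacking Cd11b, and polyA RNA was read from its 3′ ends. The groups were day 14 off (n = 4), day 14 on (n = 2), day 5 off (n = 2) and day 5 on (n = 2). Neither the organ nor the mouse behind a library is named in the labels, so p-values measure the spread between these libraries, which may be technical. The mice's ages, and whether all libraries go back to the same primary leukaemia, were not given in the sources used here. Every off library came from doxycycline-treated mice and no on library did, so loss of R882H and the drug itself, which is known to act on mitochondrial ribosomes, cannot be told apart. In bulk samples, fewer cells of a type and less RNA per cell cannot be told apart either.

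Libraries held 9292644 to 14340624 counts, of which genes at ribosomal RNA loci took 7.78% to 16.5%. Levels are CPM values scaled by edgeR's TMM factors (the count of a gene relative to the library's total), so they compare a gene between libraries and not genes with each other. Of the 48 members, 44 passed the low-count filter, and 39 of these had at least 177 counts in every library. The other 4, Cox4i2, Cox7b2, Cox8b and Cox8c, had 0 counts in all 10 libraries. A level below 0.209 to 0.323 CPM, depending on the library's depth, could thus have been missed. That floor is 3 counts over the library's total before TMM scaling, for counting error only. Kit was at 30.9 to 36.4 CPM in day 14 off and at 88.9 and 98.1 CPM in day 14 on. At day 5 it was at 43.3 and 40.3 CPM with R882H off and 51.3 and 56.2 with R882H on. Itgam, the gene of Cd11b, was at 2.07 to 3.73 CPM in day 14 off, 21.9 and 8.76 in day 14 on and 3.08 to 14.6 in the day 5 libraries. Both were lower in day 14 off than in day 14 on, Itgam by a log2 value of -2.28 ± 0.56 (edgeR adjusted p = 0.012). With R882H on, Kit was higher at day 14 than at day 5, by 0.80 ± 0.14 (edgeR adjusted p = 0.033). Erythroid marker genes differed between the day 14 groups. Of 24, all detected, 17 were higher and 0 lower in day 14 off, and their summed level was 4983 to 6308 CPM in day 14 off, 1733 to 2462 in day 14 on, 1262 to 2943 in day 5 off and 1597 to 3711 in day 5 on. Without the 4 globin genes, which carry much of that sum, it was 2969 to 3139 CPM in day 14 off, 245 to 355 in day 14 on, 379 to 1108 in day 5 off and 254 to 357 in day 5 on. Of the granulocytic list 4 of 11 tested genes were lower at day 14 off and 0 higher, and of the monocyte and macrophage list 2 of 7 were lower and 0 higher. Among 6 lymphoid and 5 megakaryocyte genes, 1 of each was higher and 1 lower. Of 4 mast cell and basophil genes 1 was lower, and the 1 stromal gene tested was not called. Over all tested genes 16.9% were higher and 14.9% lower at day 14, and 1 gene in lists this short is not far from that share. The part of these marker differences in the changes described here was not tested.

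Complexes II, III and IV carry electrons from succinate through ubiquinol and cytochrome c to oxygen, and complexes III and IV pump protons as they do so. Complex V, the ATP synthase, uses the resulting proton gradient to make ATP. Apart from complex II, each is built from nuclear subunits together with a few subunits encoded in mitochondrial DNA, and several nuclear subunits of complex IV exist as isoforms expressed in particular tissues. Red cell precursors make mitochondria and heme before they lose their organelles, and complexes II, III and IV hold heme groups themselves.

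At day 14 the members stood higher with R882H off. Of the 44 tested, 24 were higher and 0 were lower (edgeR quasi-likelihood test, adjusted p under 0.05), beside 16.9% of all 15916 tested genes higher and 14.9% lower. By complex, 1 of 4 was higher in complex II, 5 of 9 in complex III, 8 of 14 in complex IV and 10 of 17 in complex V. The median log2 change of the tested members was 0.44, against 0.01 over all tested genes, and 40 of the 44 had a positive value. In 38 of the 44, every day 14 off library lay above every day 14 on library, as was so for 27.9% of all tested genes. The count depended on each of the day 14 on libraries. Without replicate 1 of that group, 14 members were called higher, where 8.36% of all genes were, and without replicate 2, 10 members were called, where 9.96% of all genes were, while the median stayed between 0.39 and 0.48 over all 21 alternative analyses.

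**Figure D1:**
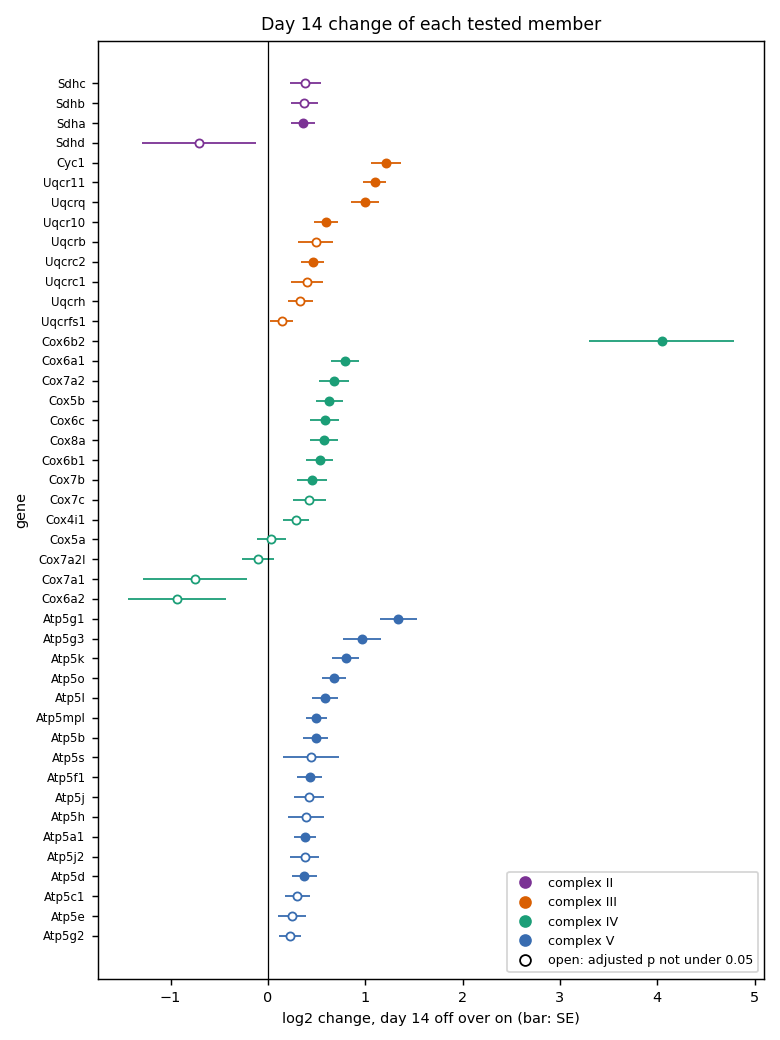
Log2 change between day 14 off and day 14 on (x axis) for each of the 44 tested genes, by complex, with bars of 1 standard error. Filled points passed an adjusted p of 0.05 by edgeR. The 24 filled points all lie to the right of 0, and Cox6b2 stands farthest out at 4.04.

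In complex III, Cyc1, Uqcr11 and Uqcrq rose most, next in size to Cox6b2 and Atp5g1 among all members. Cyc1 encodes cytochrome c1, the subunit that passes electrons to cytochrome c. It was at 55.7, 55.5, 51.6 and 46.97 CPM in the day 14 off libraries, at 20.2 and 25.02 in day 14 on, at 24.9 and 26.5 in day 5 off and at 19.9 and 22.8 in day 5 on. The 4 day 14 off libraries stood above the other 6, and among those both day 5 off values lay above both day 5 on values and around the higher day 14 on value, and the day 14 log2 change was 1.21 ± 0.15 (SE, adjusted p = 2.8e-04). Uqcr11, a small peripheral subunit, was at 164, 159, 150.3 and 148 CPM in day 14 off, at 68.9 and 76.2 in day 14 on, at 107 and 116 in day 5 off and at 102 and 96.4 in day 5 on. Here day 14 off lay above all other libraries and day 14 on below all others, and the change was 1.10 ± 0.12 (adjusted p = 1.3e-04). Uqcrq, which encodes a ubiquinone-binding subunit, followed the same order, at 90.2, 94.4, 90.5 and 83.01 CPM in day 14 off, 51.5 and 38.2 in day 14 on, 76.9 and 82.5 in day 5 off and 72.4 and 63.1 in day 5 on. Its change was 1.0 ± 0.15 (adjusted p = 6.6e-04).

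Uqcr10, another small subunit, was at 157, 165, 166 and 141 CPM in day 14 off, 109 and 99.1 in day 14 on, 134 and 137 in day 5 off and 151 and 135 in day 5 on. In this gene only the day 14 on libraries stood apart, on the low side, with a change of 0.60 ± 0.12 (adjusted p = 0.0040). Uqcrc2, one of the core subunits, was at 127, 123, 133 and 115 CPM in day 14 off and at 91.3 and 89.9 in day 14 on, and at 116 to 128 in the day 5 libraries. Its change was 0.46 ± 0.12 (adjusted p = 0.012), and its transcript end overlaps Pdzd9 on the opposite strand, which had a mean of 1220 counts against 1361 for Uqcrc2, so reads of the pair cannot be assigned with certainty. Its partner core subunit Uqcrc1 had a change of 0.40 ± 0.17 (adjusted p = 0.087). The other members not called were Uqcrb at 0.49, Uqcrh, the hinge protein, at 0.33, and the Rieske iron-sulfur protein gene Uqcrfs1 at 0.14, the smallest change of the complex.

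In complex II, 1 gene was called. Sdha, the flavoprotein that oxidises succinate, was at 137, 134, 129 and 128 CPM in day 14 off, 99.3 and 107 in day 14 on, 92.8 and 98.1 in day 5 off and 84.8 and 106 in day 5 on. Day 14 off lay above all others, with a change of 0.36 ± 0.12 (adjusted p = 0.048), a call that held in 6 of the 21 alternatives. The iron-sulfur subunit Sdhb changed by 0.37 ± 0.14 (adjusted p = 0.062) and was at 109, 133, 114 and 106 CPM in day 14 off, 95.3 and 83.4 in day 14 on, 104 and 109.9 in day 5 off and 134 and 113 in day 5 on. Sdhc, a heme-binding membrane anchor, was at 101, 112, 103 and 92.1 CPM in day 14 off, 76.4 and 80.2 in day 14 on, 68.2 and 82.9 in day 5 off and 58.3 and 83.7 in day 5 on, a day 14 change of 0.38 ± 0.16 (adjusted p = 0.095). The day 14 groups did not overlap in either gene. Sdhd, the other anchor, varied too widely between replicates to compare, at 27.6, 16.1, 4.75 and 10.4 CPM in day 14 off, 25.9 and 22.04 in day 14 on, 16.4 and 11.4 in day 5 off and 11.4 and 3.30 in day 5 on, with a value of -0.71 ± 0.58 (adjusted p = 0.39).

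The called genes of complex IV were widely expressed subunits, together with 1 isoform known from testis. Other widely expressed subunits, Cox4i1, Cox5a and Cox7c, were not called. Cox6a1, the widely expressed form of subunit VIa, was at 169, 174, 171 and 147 CPM in day 14 off, 108 and 82.8 in day 14 on, 111 and 116 in day 5 off and 96.2 and 85.2 in day 5 on. Day 14 off lay above all other libraries, and the change was 0.80 ± 0.14 (adjusted p = 0.0020). Its heart and muscle form Cox6a2 stayed between 0.847 and 3.88 CPM in all libraries, with overlapping groups. Cox6b2, known as the testis form of subunit VIb, had 152, 202, 127 and 127 counts in day 14 off, 6 and 9 in day 14 on, 14 and 118 in day 5 off and 15 and 9 in day 5 on. Scaled, that was 12.9, 14.8, 8.74 and 11.95 CPM, then 0.622 and 0.813, then 1.44 and 9.58, then 1.69 and 0.676.

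The day 14 change of Cox6b2 was 4.04 ± 0.75 (adjusted p = 0.0027), the farthest from 0 of all 44. Its day 5 off replicates were far apart, and the library with the higher value also held more RNA of the erythroid factors Gata1 (5.16 and 21.1 CPM in day 5 off replicates 1 and 2) and Klf1 (5.36 and 23.1 CPM). The whole erythroid list summed to 1262 and 2943 CPM in those libraries, but not every gene moved alike. Tal1 was at 2.58 and 3.57 CPM there, Nfe2 at 20.5 and 20.2 and Ank1 at 18.1 and 16.6. In day 14 off, Gata1 was at 58.2 to 76.3 CPM and Klf1 at 49.5 to 75.05 CPM, and in day 14 on they were at 2.26 to 3.52 and 1.63 to 1.76 CPM. The relation between Cox6b2 and these genes was not tested. The general form Cox6b1 was at 202, 234, 229 and 188 CPM in day 14 off, 151 and 143 in day 14 on, 205 and 216 in day 5 off and 243 and 193 in day 5 on. It rose by 0.53 ± 0.14 (adjusted p = 0.015), with the day 14 on libraries lowest of all 10 and the other groups overlapping.

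Cox5b, a subunit on the matrix side, was at 145, 158, 153 and 135 CPM in day 14 off, 108 and 82.6 in day 14 on, 138 and 129.8 in day 5 off and 119 and 118 in day 5 on, with a change of 0.63 ± 0.14 (adjusted p = 0.0056). Cox7a2, the general form of subunit VIIa, was at 182, 187, 183 and 175 CPM in day 14 off, 122 and 105 in day 14 on, 161 and 168 in day 5 off and 198 and 139 in day 5 on, with a change of 0.68 ± 0.15 (adjusted p = 0.0063). In both genes the day 14 on libraries were the lowest of all 10. The muscle form Cox7a1 lay between 0.254 and 1.13 CPM in all libraries, and the related Cox7a2l, a factor of supercomplexes between complexes III and IV, was at 370.1, 361, 532 and 405 CPM in day 14 off and 454 and 441 in day 14 on, with overlapping groups and a value of -0.10 ± 0.16. Cox8a, the general form of subunit VIII, was at 258, 311, 322 and 238 CPM in day 14 off, 199 and 180.1 in day 14 on, 239 and 251 in day 5 off and 189 and 195 in day 5 on, and rose by 0.57 ± 0.15 (adjusted p = 0.012).

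Cox7b, another small subunit of the oxidase, was at 159, 161, 161 and 155 CPM in day 14 off, 127 and 105 in day 14 on, 184 and 178 in day 5 off and 229 and 158 in day 5 on. Its day 14 off values lay inside the day 5 range or just under it, so its change of 0.46 ± 0.16 (adjusted p = 0.045) came with the low day 14 on values, and the call held in 10 of the 21 alternatives. Cox6c rose by 0.58. Cox4i1, the general form of the largest nuclear subunit, had a change of 0.29 ± 0.13 (adjusted p = 0.12), with 132, 136, 154 and 136 CPM in day 14 off, 128 and 100.4 in day 14 on, 129.9 and 119.7 in day 5 off and 119.9 and 119.6 in day 5 on. The remaining members not called were Cox7c at 0.42 and Cox5a at 0.04, whose reads overlap those of the lncRNA Gm26631. The 4 undetected members were the tissue forms known from lung (Cox4i2), heart and muscle (Cox8b) and testis (Cox7b2 and Cox8c).

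**Figure D2:**
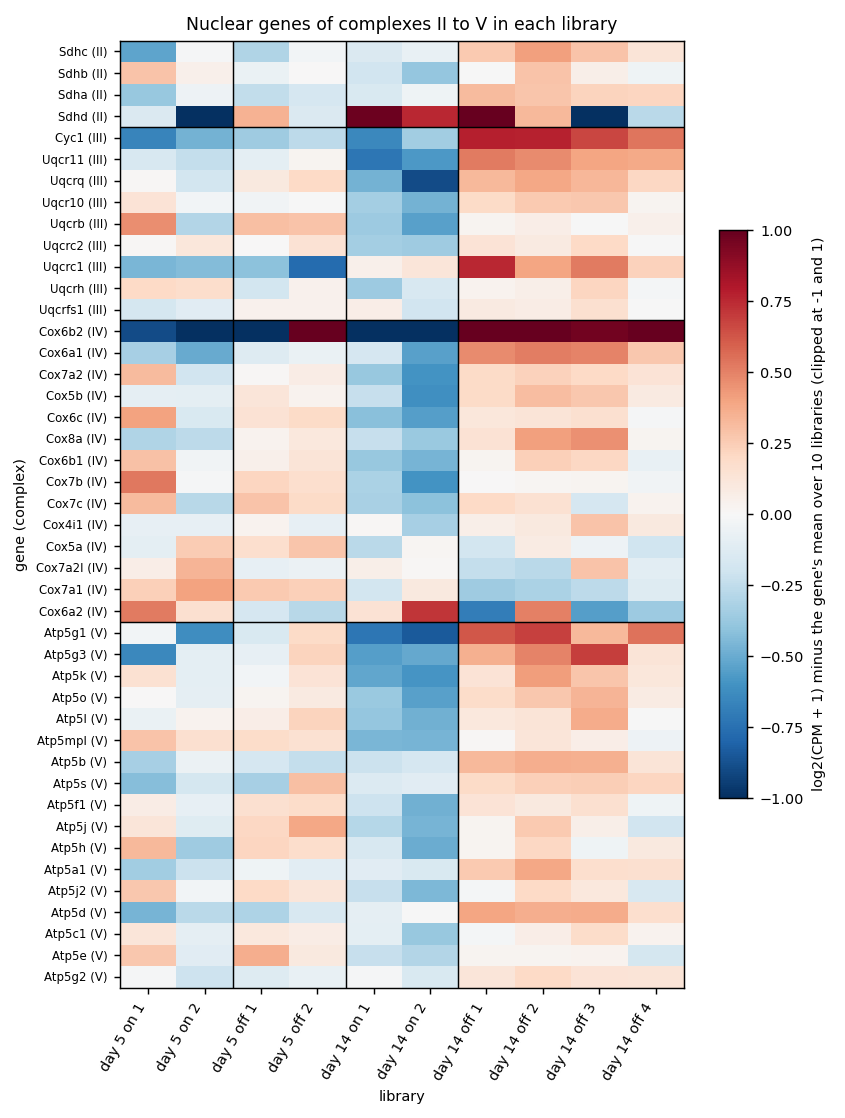
Level of each tested gene in each library as log2(CPM + 1) minus the gene's own mean over the 10 libraries, clipped at -1 and 1, with genes ordered by complex and by their day 14 change. Red marks libraries above and blue libraries below the gene's mean; the day 14 on columns are mostly blue and the day 14 off columns mostly red, while the pale Cox7a2l, Cox5a and Uqcrfs1 rows show little of this.

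In complex V all 17 members were tested, all had a positive value at day 14, and in all 17 every off library lay above every on library. The c ring, which turns as protons pass through the membrane, is built from a protein encoded by 3 genes with the same mature product. Atp5g1 was at 215, 225, 174 and 204 CPM in day 14 off, 83.9 and 77.4 in day 14 on, 125 and 159 in day 5 off and 137 and 90.3 in day 5 on, with a change of 1.34 ± 0.19 (adjusted p = 5.6e-04). Atp5g3 was at 1256, 1385, 1588 and 1076 CPM in day 14 off, 669 and 687 in day 14 on, 925 and 1143 in day 5 off and 626 and 915 in day 5 on, with a change of 0.97 ± 0.19 (adjusted p = 0.0037). The third gene, Atp5g2, was at 214, 226, 217 and 216 CPM in day 14 off, 196 and 177 in day 14 on, 180.4 and 187 in day 5 off and 195 and 170.3 in day 5 on, with a change of 0.23 ± 0.11 (adjusted p = 0.15). Differences between the 3 genes in their change were not tested.

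Among the small membrane subunits, 3 of 4 rose. Atp5k, subunit e, was at 210.0, 256, 232 and 206 CPM in day 14 off, 133 and 126 in day 14 on, 187 and 210.4 in day 5 off and 212 and 179 in day 5 on, and its change was 0.80 ± 0.14 (adjusted p = 0.0016). Atp5mpl, which encodes a small proteolipid, was at 169, 182, 175 and 162 CPM in day 14 off, 122 and 121 in day 14 on, 190.3 and 186 in day 5 off and 204 and 187 in day 5 on, a change of 0.50 ± 0.11 (adjusted p = 0.0066). Both had their lowest values in day 14 on, with day 5 and day 14 off close together. Subunit g, Atp5l, rose by 0.59, and subunit f, Atp5j2, had a change of 0.38 without a call. In the peripheral stalk, 2 of 4 rose, Atp5o (OSCP, which joins the stalk to the catalytic head) and Atp5f1 (subunit b, by 0.43). Atp5o was at 209, 222, 233 and 195 CPM in day 14 off, 142 and 126 in day 14 on, 188 and 195 in day 5 off and 185 and 173 in day 5 on, a change of 0.68 ± 0.12 (adjusted p = 0.0021). Of the 5 genes of the catalytic head and central stalk, Atp5a1 (alpha, 0.38), Atp5b (beta, 0.49) and Atp5d (delta, 0.38, a call that held in 8 of the 21 alternatives) rose, and Atp5c1 (gamma, 0.30) and Atp5e (epsilon, 0.24) were not called. The other peripheral stalk genes, Atp5h (0.39) and Atp5j (0.42), were not called. Atp5s, a regulatory factor of the synthase and not a core subunit, lay between 2.36 and 4.54 CPM in all libraries and was not called, at 0.44 ± 0.29. The inhibitor of the synthase, Atpif1, has a symbol outside the rule and is no member. It was at 516, 548, 432 and 589 CPM in day 14 off and at 174 and 169.6 in day 14 on, a change of 1.60 ± 0.21 (adjusted p = 3.2e-04). Of the 2 synthase genes looked up outside the rule, Atpif1 and Usmg5, 1 was higher and 0 lower, so Usmg5 was not called.

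The 24 called genes showed different orders of the groups. Of the 44 tested members, 13 had all 4 day 14 off libraries above the other 6, and 22 had both day 14 on libraries below the other 8, beside 12.9% and 9.91% of all tested genes. In 9 of the 24 called genes all 4 day 14 off libraries lay above the other 6, as in Cyc1, Cox6a1 and Sdha. In 15 both day 14 on libraries lay below the other 8, as in Uqcr10, Cox7b and Atp5mpl. Uqcr11, Uqcrq and Atp5g1 did both, and 3 of the 24 (Cox6b2, Cox8a and Atp5g3) did neither. These orders use the libraries that made the calls and carry no test of their own, and being called at day 14 favours both.

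**Figure D3:**
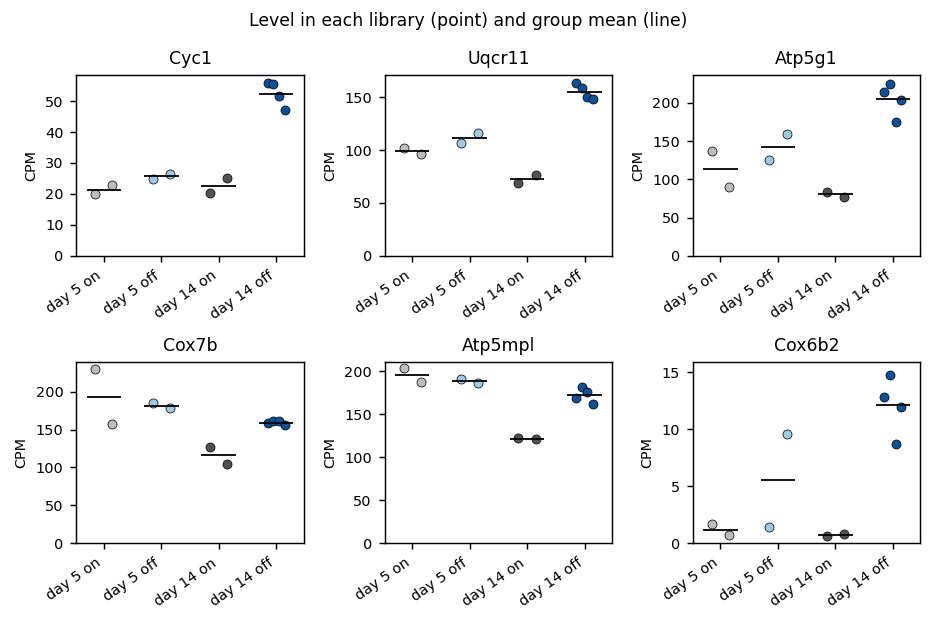
Level in CPM (y axis, from 0) of 6 genes in the 10 libraries, with a point for each library and a line at each group's mean. In Cyc1 the day 14 off libraries, at 46.97 to 55.7 CPM, stand above the rest; in Cox7b and Atp5mpl the day 14 on libraries stand below the rest; Uqcr11 and Atp5g1 show both; Cox6b2 is high in day 14 off and in 1 day 5 off library.

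Upstream sequence was compared because the members moved together at day 14. RefSeq promoter windows (GRCm38.p6) matched 32 of the 44 tested members, and the 250 bases before the annotated start were searched on both strands. Letters bound by nuclear respiratory factor 1, a known activator of respiratory genes, searched as the capitals that the stretches of Atp5k and Sdha show, with the base after GCGCA free, occurred in 7 of the 32 (21.9%), and in 9.40% of the windows of 9495 tested coding genes. The ETS core CCGGAAG, bound among others by the respiratory gene activator GABP, occurred in 9 members (28.1%) and 16.1% of the genes, and the SP1 letters GGGCGG in 9 members (28.1%) and 63.0%. The GATA letters AGATAA occurred in 4 members (12.5%) and 7.58%, and the YY1 letters AAGATGGC in 1 member (3.12%) and 2.46%. Of the 32 members with a window 17 were called at day 14. Among them were 3 of the 7 with the nuclear respiratory factor 1 letters and 4 of the 9 with the ETS core. Most members with either were thus not called, but these numbers are small and a relation to the calls was not tested. A match is a description of these letters and does not show binding. The stretches shown were taken from called genes and lie on the minus strand, printed 5′ to 3′ along the gene with the match in capitals. For the ETS core they are Uqcr11 at chr10:80406841-80406927, Atp5l at chr9:44920908-44920992 (reverse complement of the core) and Cox6a1 at chr5:115348959-115348984 (reverse complement).
Uqcr11: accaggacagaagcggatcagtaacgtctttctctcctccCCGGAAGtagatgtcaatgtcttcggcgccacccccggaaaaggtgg
Atp5l: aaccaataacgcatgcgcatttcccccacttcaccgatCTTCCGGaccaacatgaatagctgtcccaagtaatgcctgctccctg
Cox6a1: cccatttccgCTTCCGGcgcgccggt
For the nuclear respiratory factor 1 letters they are Atp5k at chr5:108434430-108434459, Cox6a1 at chr5:115349101-115349130 and Sdha at chr13:74350319-74350348.
Atp5k: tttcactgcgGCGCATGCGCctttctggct
Cox6a1: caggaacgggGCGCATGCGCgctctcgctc
Sdha: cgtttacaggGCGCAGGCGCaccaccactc
In Cox6a1 the first stretch lies 16 bases before the RefSeq start and the second 162 bases before it, counted from the first base of the match. GENCODE M21 begins Cox6a1 at base 115348981 and Atp5k at base 108434448. By it the ETS match of Cox6a1 and most of the match of Atp5k lie inside the gene. The printed stretches of Cox6a1 and Atp5k touch annotated exons, those of Cox6a1 and Gm42903 and that of Atp5k, and the stretch of Sdha touches Ccdc127.

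Many of these genes have copies elsewhere in the genome, most of them processed pseudogenes, whose ends are nearly identical, and 17 of the 48 members had at least 1. Where a copy was itself counted and did not overlap the member, as Pdzd9 does Uqcrc2 and Gm26631 does Cox5a (mean of at least 20 counts, at least 95% identity over at least 75 of the last 300 bases), its counts were added to its member, 17 copies for 9 members, in an analysis chosen after the data were seen. The number of members called higher at day 14 was again 24. Atp5g1 moved most. The lincRNA Gm16702 on chromosome 17, 96.5% identical over 169 bases, had a mean of 2023 counts against 1758 for Atp5g1 itself, and with Gm16702 and Gm10039 added the day 14 change was 0.67 ± 0.17 (adjusted p = 0.011) in place of 1.34. The log2 change with time in the R882H on arm went from -0.49 to -1.05 (adjusted p = 0.033) in the same analysis, and the day 5 value turned from 0.33 to -0.52 ± 0.19 (adjusted p = 0.24). For Atp5l, with 6 counted copies, the change moved from 0.59 to 0.64, and for Cox5b from 0.63 to 0.67. The sources used here do not say how the authors' counting divided reads between a gene and its copy, so the level of Atp5g1 is uncertain.

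At day 5 no member was called in either direction by edgeR, where 0.371% of all tested genes were higher and 0.113% lower with R882H off. At an unadjusted edgeR p under 0.05 there was 1 of the 44 members, beside 2374 of all 15916 tested genes. It was Cox6b2, at 2.31 ± 0.75 (adjusted p = 0.20). DESeq2 called Cox6b2 higher, as it did 1.95% of all genes, and limma voom called 0 genes of any kind. The members' median change was 0.12, beside -0.02 over all genes. In 14 of the 44 both off libraries lay above both on libraries, and in 19.3% of all genes. Cyc1 had a day 5 value of 0.26 ± 0.17, Uqcr11 0.17 ± 0.13, Uqcrq 0.23 ± 0.16 and Atp5g1 0.33 ± 0.21, the last turning to -0.52 with its copies added. Values of this size did not pass the test with 2 libraries a group. Of the 24 erythroid genes 3 were higher with R882H off at day 5 (Epor, Car1 and Rhag) and 0 lower, with a median of 2.15.

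With R882H left on, levels at day 14 were below those at day 5 in most members, but few calls were made. The log2 value was negative in 32 of 44, with a median of -0.35 against 0.00 over all genes, and 25 of 44 had both day 5 on libraries above both day 14 on libraries, beside 23.1% of all genes. The median was 0.12 in complex II, where 3 of 4 were positive, -0.45 in complex III, -0.37 in complex IV and -0.34 in complex V. Within complex V it was -0.01 in the 5 head and central stalk genes and -0.53 in the 4 small membrane subunits. Only Atp5mpl was called, lower by edgeR at -0.69 ± 0.13 (adjusted p = 0.033), from 204 and 187 CPM to 122 and 121. Among all tested genes 0.968% were higher and 1.36% lower. At an unadjusted edgeR p under 0.05 there were 21 of the 44 members, beside 3254 of all 15916 tested genes. DESeq2 called 9 members lower, beside 3.69% of all genes. They were Atp5mpl, Atp5k, Uqcr10, Uqcr11, Uqcrq, Cox6b1, Cox6c, Cox7a2 and Cox7b. Atp5mpl lost its call in 8 of the 10 analyses that left out a library. The median was -0.21 without day 5 on replicate 1, the library with the highest values of Cox7b, Cox6c and Uqcrb in that arm, and 6 members were called lower without day 5 on replicate 2. This comparison and the day 14 comparison share the day 14 on libraries and are not independent.

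With R882H off, 7 members were higher at day 14 than at day 5 and 0 were lower, beside 10.1% and 6.94% of all genes. They were Uqcrc1 (1.09 ± 0.17, adjusted p = 0.0032), Cyc1 (1.03 ± 0.15, adjusted p = 0.0024), Atp5d (0.56 ± 0.12, adjusted p = 0.013), Cox6a1 (0.54 ± 0.14, adjusted p = 0.025), Atp5b (0.50 ± 0.13, adjusted p = 0.022), Uqcr11 (0.48 ± 0.12, adjusted p = 0.019) and Sdha (0.47 ± 0.12, adjusted p = 0.028). A share of 7 in 44 is not far from the background. Of the 24 erythroid genes 18 were higher and 0 lower in the same comparison, with a median of 2.14, and their part in the members' values was not tested. Uqcrc1 was at 88.98, 69.2, 75.7 and 61.6 CPM in day 14 off, 54.4 and 57.2 in day 14 on, 39.2 and 30.4 in day 5 off and 37.99 and 38.7 in day 5 on, so its level at day 14 was above day 5 in each arm. Atp5b was at 280.2, 288, 287 and 245 CPM in day 14 off, 193 and 199 in day 14 on, 199 and 189 in day 5 off and 178 and 215 in day 5 on. Atp5d was at 181, 177, 178 and 155 CPM in day 14 off, 129 and 137 in day 14 on, 111 and 123 in day 5 off and 99.03 and 114 in day 5 on. In both, day 14 off lay above every other library. The count was 2 without day 14 off replicate 1 or without day 5 off replicate 1, and 3 without day 14 off replicate 2 or without day 5 off replicate 2.

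**Figure D4:**
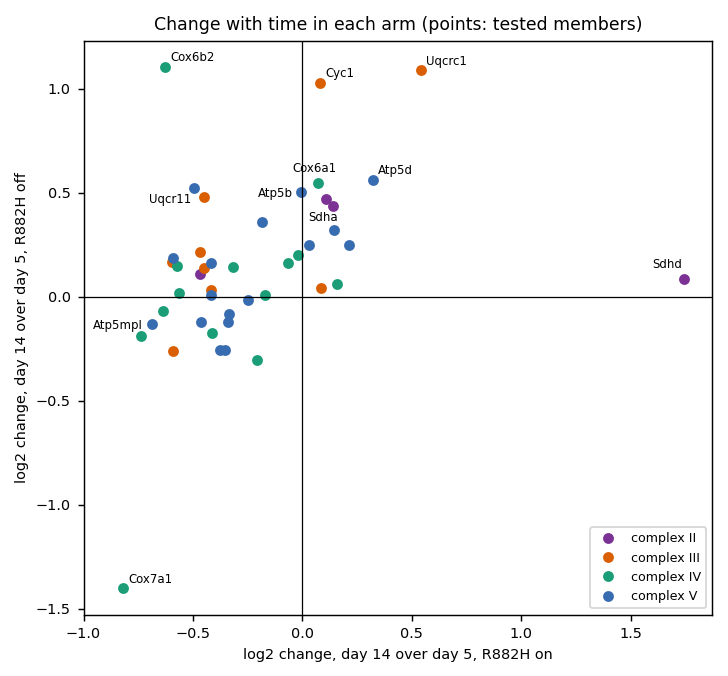
Log2 change from day 5 to day 14 with R882H on (x axis) and with R882H off (y axis) for the 44 tested genes, coloured by complex; the axes share no library, and named points are the genes called in either arm together with Sdhd, Cox7a1 and Cox6b2. Most points lie left of 0, with a median of -0.35 on the x axis, and scatter around 0 on the y axis, with a median of 0.14.

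The change with R882H off was tested for a difference between day 14 and day 5. It was larger at day 14 in Cyc1 (difference of 0.95 ± 0.23 log2 units, adjusted p = 0.0496) and Uqcr11 (0.93 ± 0.17, adjusted p = 0.028), 2 of the 44 members, where 1.65% of all tested genes had a higher and 1.41% a lower difference. The call of Cyc1 was lost in 15 of 20 alternatives and that of Uqcr11 in 6. The difference was positive in 39 of 44 members, with a median of 0.39 against 0.03 over all genes. By DESeq2, 4.28% of all tested genes had a higher and 4.06% a lower difference. DESeq2 called 9 members, and 0 were called by edgeR without any 1 of day 14 off replicates 1, 2 and 4, either day 14 on library or day 5 off replicate 1. By complex the median difference was 0.33 in complex II, 0.59 in complex III, 0.35 in complex IV and 0.25 in complex V, and none of these was compared with another.

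Median changes also differed by transcript length, in members and in other genes. Of the tested members, 17 have a longest coding transcript of at most 700 bases, a limit chosen after the values were seen, and their median day 14 change was 0.53, against 0.42 in the 27 longer ones. Among tested coding genes that are not members, the median was 0.26 in the 261 with such short transcripts and -0.00 in the 11808 longer ones. For the change with time with R882H on, the medians were -0.45 and -0.18 in short and long members, and -0.34 and 0.07 in short and long other genes. Among other coding genes with a mean of at least 500 counts, the day 14 medians were 0.27 in 104 short and 0.07 in 3235 long ones. With time on they were -0.43 and 0.01. Of those genes 31.7% of the short and 24.9% of the long were called higher at day 14, beside 58.8% and 51.9% of short and long members. The parts of transcript length and count level in the members' changes were not tested.

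Of 35 tested assembly factors, which build the complexes and are not part of them, 5 (14.3%) were higher at day 14 and 0 lower, a share of higher genes near the 16.9% of all tested genes. Among them, 1 of 4 tested factors for complex II was higher (Sdhaf4, by 0.81 ± 0.21), 1 of 6 for complex III (Bcs1l, which inserts the Rieske protein, by 0.79 ± 0.22), 3 of 22 for complex IV and 0 of 3 for complex V. The complex IV factors were Cmc2 (0.90 ± 0.17), Coa5 (0.69 ± 0.14) and Cox11, which serves copper delivery to the oxidase (0.89 ± 0.31, edgeR adjusted p = 0.048). Of the 6 subunits of complexes III to V encoded in mitochondrial DNA, mt-Cytb (0.81 ± 0.15) and mt-Atp8 (0.57 ± 0.18) were higher and 0 lower. The value of mt-Atp6 fell just short of a call, at 0.40 ± 0.14 (edgeR adjusted p = 0.052). Cytochrome b, from mt-Cytb, was at 1799.8 to 1922 CPM in day 14 off and at 1031 and 1122 in day 14 on. The catalytic oxidase subunit gene mt-Co1 went the other way without a call, at -0.23 ± 0.14. Cycs, cytochrome c itself, rose by 0.69 ± 0.19 and Ndufa4, now counted with complex IV, by 0.84 ± 0.16, and Ndufa4 was also lower at day 14 than at day 5 with R882H on (-0.83 ± 0.17).

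Of 10 tested regulators of respiratory genes, 3 were higher at day 14 with R882H off and 1 was lower, beside 16.9% and 14.9% of all tested genes. Pprc1, a coactivator of the PGC-1 family, was at 20.8, 22.04, 15.1 and 23.3 CPM in day 14 off, 9.85 and 11.9 in day 14 on, 9.59 and 8.03 in day 5 off and 9.89 and 9.84 in day 5 on, a change of 0.90 ± 0.21 (edgeR adjusted p = 0.0083). Ppargc1b, another coactivator of that family, was called higher, at 4.66, 5.71, 2.41 and 1.69 CPM in day 14 off and at 0 and 0.0903 in day 14 on. Tfam, the packaging and transcription factor of mitochondrial DNA, rose by 0.64 ± 0.15, and Gabpb1, a subunit of GABP, fell by 0.65 on the log2 scale (edgeR adjusted p = 0.037). Its partner Gabpa had a value of -0.06 ± 0.17 and Nrf1, the gene of nuclear respiratory factor 1, 0.22 ± 0.16, and neither was called.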

How the data were processed

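The authors deposited 1 table of raw read counts per Ensembl gene, not normalised. The submitters' processing notes name the build mm10 and, for this or later steps, HISAT2 2.0.4, cutadapt 1.14, bcl2fastq 2.17.1.14, Subread 2.0.0 with featureCounts, limma 3.48.3 and edgeR 3.34.0, with no settings, strand choice or annotation. Per the labels' protocols, QuantSeq 3′ libraries were read as single ends. GENCODE M21 gave symbols and positions for 52403 gene IDs, and 233 had no match. The analysis of the counts used edgeR 4.0.16 in R 4.3.3 (filterByExpr, TMM, and a robust quasi-likelihood model of the 4 group means over all 10 libraries). Its p-values were adjusted by Benjamini-Hochberg over the 15916 genes left, with calls at 0.05, and the procedure was tested on simulated counts. A standard error is the log2 change divided by the root of F. The alternatives were DESeq2 1.42.0, limma voom 3.58.1, RLE scaling, other filters, a replicate block, the compared groups alone, protein-coding genes alone, thinned counts, no ribosomal RNA locus genes, and each library left out in turn, where a library left alone in its group was given the spread of the others. Adding near-identical copies was chosen after seeing the data. A gene was taken to share all its reads with an overlapping one if their counts differed by at most 2% in each library, and no member had such a partner.

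Values in every library are given for the up to 5 genes of smallest day 14 p in each complex. They are also given for up to 6 genes called in each other comparison and for the isoform sets. Exceptions are Cox6a2 and Cox7a1, given as ranges, Uqcrc2, given as a range at day 5, and Cox7a2l, given only at day 14. Other genes with values were named to account for every member or after their values were seen. Members, lists and tests were chosen with earlier results of these data known. Marker and pathway lists are described by counts, with no test of the list.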

Additional observations from a re-analysis of the deposited data

Results flagged for a closer look

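Replicate 4 of day 14 off stood below the other 3 day 14 off libraries, which lay close together, in 2 of 29 genes examined in that group. They were Cox6a1, at 147 CPM beside 169 to 174, and Atp5d, at 155 CPM beside 177 to 181. The gap to the nearest library, divided by the range of the group, was 0.830 for Cox6a1 and 0.834 for Atp5d, over Dixon's 95% critical value for 4 libraries, which chance passes in about 1 of 20 groups. That library also had the highest share of counts at ribosomal RNA loci, 16.5%, and a relation between them was not tested. Without it Cox6a1 kept its day 14 call. Atp5d lost its call without that library, as it did without any 1 of the other day 14 off libraries. Its call held in 8 of the 21 alternatives.

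The change with R882H off differed between day 14 and day 5 in Cyc1, by 0.95 log2 units, and in Uqcr11, by 0.93, larger at day 14 in both (edgeR, a test of the difference itself, adjusted p = 0.0496 and 0.028). The call of Cyc1 was lost in 15 of 20 alternatives, among them 9 of the 10 that left out a library, and that of Uqcr11 in 6 of 20, all of them leaving out a library.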

How the results depend on the processing

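None of 35 changes followed by gene, namely those of members named for a comparison's smallest p and the day 14 changes of the isoform sets, turned direction under the alternatives that gave a value, at most 21 each (20 for the difference between days, which the compared groups alone could not give). Among uncalled values, that of Atp5g1 at day 5 turned from 0.33 to -0.52 with copies added. Of the 24 day 14 calls, 10 held throughout (Cyc1, Uqcr10, Uqcr11, Uqcrq, Cox6a1, Cox6b2, Atp5g1, Atp5g3, Atp5k and Atp5o). RLE scaling moved the median of all genes by under 0.03. With no low-count filter, 1 member was lower at day 14 (Sdhd), 2 were higher at day 5, 1 was higher and 2 lower with time in the on arm, and 1 had a lower difference between days. Called genes then numbered 992 at day 5 (77 in the main analysis), 1275 with time on (370) and 1957 for the difference (487). DESeq2 gave 472, 1136 and 1327 such genes, with 1 member higher at day 5, 9 lower with time on and 9 with a higher difference. Limma voom gave 0 genes at day 5 and 1 member for the difference. A fit of only the compared groups gave 0 genes at day 5, and 0 genes and 0 members with time on. The members lower with time on were 2 with the 5 CPM filter, with protein-coding genes or with copies added. Members with a higher difference were 1 under RLE scaling, the 5 CPM filter, thinning or without ribosomal RNA locus genes. The cause of these shifts was not tested.

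Leaving out 1 library at a time, members called higher at day 14 ran from 10 to 27 and lower from 0 to 1 (Cox6a2, without day 14 off replicate 2), among 2985 to 5738 called genes. At day 5, 0 to 1 members were called higher and 0 to 304 genes. With time on, 0 to 6 members were lower and 0 to 680 genes called, and with time off 2 to 9 members were higher and 601 to 3409 genes called. For the difference, 0 to 3 members were higher among 106 to 965 genes.

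Replicate numbers are shared by the groups, but nothing in the labels ties same-numbered libraries together, and with at most 2 pairs the correlations of their deviations, 0.03 to 0.334, do not settle a pairing. A replicate block gave 28 members higher at day 14 and 9 with time off, 225 genes at day 5, 1 member higher, 2 lower and 1014 genes with time on, and 5 members and 1521 genes for the difference. Depth limits Cox6a2, Cox7a1 and Atp5s to few counts. Cox6b2 is limited in the same way outside day 14 off, except in day 5 off replicate 2, where it had 118 counts.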
